A study of Mus musculus with 6 samples.

Results

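Mitochondrial ribosomal protein genes were taken from an RNA-seq comparison of germinal center (GC) B cells lacking HVEM with WT GC B cells. They were chosen by symbol alone, as every gene whose name is Mrpl or Mrps followed by a number and at most 1 letter, which gave 76 of the 23337 genes in the table. The cells came from mixed bone marrow (BM) chimeras on the C57BL/6 background, reconstituted for 8 weeks and analyzed at day 11 after NP-CGG in alum. *Hvem*-/- donor cells carried CD45.2, and the WT cells are CD45.1/2 in the submitters' labels and CD45.1 in the study's description. HVEM, encoded by *Tnfrsf14*, was absent from all cells of the *Hvem*-/- donor marrow and was not removed from GC B cells alone. For each of 6 samples, 3 WT (replicates 1, 3 and 5) and 3 *Hvem*-/- (replicates 2, 4 and 6), 50000 B220+ GL7+ Fas+ cells low for IgD and CD38 were sorted. The ages of the mice are not given in the labels.

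Mitochondria keep a small genome that encodes core subunits of the respiratory chain, and they translate it on their own ribosome, the mitoribosome. Its ribosomal RNAs come from the mitochondrial genome, whereas its proteins are encoded in the nucleus, made in the cytosol and imported. The small subunit holds the decoding center, where messenger RNA and transfer RNA are matched, and the large subunit joins amino acids and passes the new chain to the inner membrane through an exit tunnel. Many of the proteins have bacterial counterparts, and the others were added during the evolution of mitochondria. GC B cells divide fast and are known for active mitochondrial respiration. The comparison with *Hvem*-/- cells asks whether transcripts for this machinery differed with genotype.

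The rule covered 26 proteins of the small subunit and 49 of the large subunit, and *Mrps36*, which belongs to neither. *Mrps36* has a ribosomal name but its product is now known as a subunit of the 2-oxoglutarate dehydrogenase complex. *Mrps30* and *Mrps18a* have small-subunit names but their products sit in the large subunit, and they were counted there. By origin, 46 members have a bacterial counterpart and 29 are mitochondrial additions. The genes were spread over the genome, with 10 members on chromosome 11 as the highest number on one chromosome.

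Nuclear respiratory factor 1 (NRF1), GA-binding protein (GABPA) and YY1 are transcription factors known to act on nuclear genes for mitochondrial proteins, so the promoters of the members were searched for letters of their motifs. RefSeq windows of the GRCm38.p6 build, from 250 bases before to 50 bases after the annotated start, were matched by symbol to 67 of the 76 members. On either strand, 17.9% of the member windows held the NRF1 letters (GCGCA and GCGC with any 1 base between them), 34.3% held CCGGAAG (GABPA) and 29.9% held AANATGGC (YY1, where N is any base). Over all 27025 promoter windows the shares were 4.78%, 9.12% and 6.23%, and over the 6979 windows of genes tested here they were 12.1%, 21.2% and 10.3%. At least 1 of the 3 motifs was present in 44 of 67 member windows (65.7%), against 37.6% of windows of tested genes and 17.95% of all windows. The median GC content of the windows, the share of guanine and cytosine, was 58.0% for members and 61.0% for tested genes. A match describes the letters and does not show that a factor bound there.

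**Figure D1:**
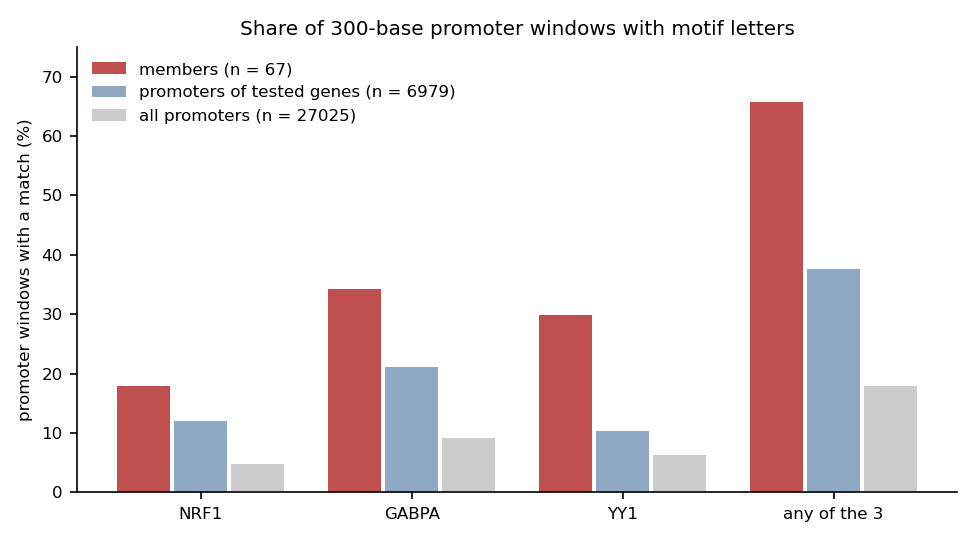
Share of promoter windows (in percent, y axis) that held the letters of each motif (x axis), for members (67 windows), tested genes (6979) and all promoters (27025). The bar for members stood above both others for each motif, with 65.7% of member windows holding at least 1.

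The following promoters show the upstream motif letters of members with different roles, written 5′ to 3′ on the strand of the gene with the motif in capitals, and each ends before the first base of the gene in GENCODE. Distances are counted from the RefSeq start, which for *Mrpl12* and *Mrpl27* lies downstream of the GENCODE one. *Mrpl12*, part of the stalk that recruits translation factors, had the NRF1 letters 81 bases before the start (chr11:120484387-120484612, plus strand). *Mrpl45*, which anchors the ribosome to the inner membrane near the exit tunnel, had them at 120 and at 38 bases before the start (chr11:97315466-97315715, plus strand), and once more 15 bases after it, outside the printed stretch. *Mrpl27*, whose bacterial counterpart reaches toward the peptidyl transferase center, had the GABPA letters 55 bases before the start (chr11:94653541-94653766, plus strand).
Mrpl12: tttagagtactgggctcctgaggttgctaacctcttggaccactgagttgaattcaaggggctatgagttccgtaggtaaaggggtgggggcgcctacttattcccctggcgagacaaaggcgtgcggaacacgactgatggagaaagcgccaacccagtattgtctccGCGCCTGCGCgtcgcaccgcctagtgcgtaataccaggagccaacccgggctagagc
Mrpl45: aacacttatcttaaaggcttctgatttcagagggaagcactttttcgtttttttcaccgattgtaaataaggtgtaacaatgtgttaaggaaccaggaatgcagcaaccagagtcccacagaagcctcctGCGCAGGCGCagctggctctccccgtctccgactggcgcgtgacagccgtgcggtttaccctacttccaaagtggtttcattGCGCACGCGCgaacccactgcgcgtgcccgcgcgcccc
Mrpl27: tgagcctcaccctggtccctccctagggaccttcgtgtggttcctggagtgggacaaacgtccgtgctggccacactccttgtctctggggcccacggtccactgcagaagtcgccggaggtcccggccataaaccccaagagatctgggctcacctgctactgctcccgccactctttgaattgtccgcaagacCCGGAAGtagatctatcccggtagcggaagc

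The YY1 letters lay mostly just after the RefSeq start. Of 20 member windows with these letters, 15 (75%) had them after the start, against 51.8% of the windows of tested genes that held them. The short sites below, from 4 members among those described for their level or role, show the shared letters in capitals (GRCm38.p6, 5′ to 3′ on the strand of the gene). They come from *Mrpl18* (chr17:12916062-12916091, minus strand), *Mrpl42* (chr10:95501904-95501933, minus strand), *Mrps7* (chr11:115604147-115604176, plus strand) and *Mrps18a* (chr17:46111004-46111033, plus strand), with the first capital 6, 27, 18 and 11 bases after the RefSeq start, respectively. The GENCODE gene starts farther upstream for *Mrpl18* (at 12916345), *Mrps7* (at 115603925) and *Mrps18a* (at 46110986), so these sites lie deeper in the gene by that annotation.
Mrpl18: acagttAACATGGCtgcgactagttgttcc
Mrpl42: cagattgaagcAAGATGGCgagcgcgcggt
Mrps7: tgacagcggccAAGATGGCtgcccccgcgc
Mrps18a: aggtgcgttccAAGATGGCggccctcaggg

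The libraries held between 2505918 and 3636163 reads in genes, and *Tnfrsf14* counted 13, 11 and 17 reads across the WT libraries against 0, 0 and 4 across the *Hvem*-/- libraries. Members took 0.172%, 0.191% and 0.181% of the reads in WT replicates 1, 3 and 5, against 0.164%, 0.177% and 0.163% in *Hvem*-/- replicates 2, 4 and 6, and these shares overlapped. A member had a median of 305 reads over the 6 samples together, from 27 for *Mrps6* to 1356 for *Mrps7*, and 8 members had fewer than 100. All 12 GC B cell markers were tested, with a summed level of 7594 to 8126 CPM (reads of a gene scaled to a common library total) over the 6 samples. Of these markers, 6 had a higher and 6 a lower fitted level in *Hvem*-/-. *Rgs13* had the smallest p, with a log2 fold change of 0.86 (edgeR with Benjamini-Hochberg, adjusted p = 0.028). *Cd79a*, *Cd79b* and *S1pr2* had log2 fold changes of -0.45, -0.35 and -0.31, each at an unadjusted p under 0.05 (edgeR). All 12 T cell markers had reads, and their summed level was 201.0 to 230.7 CPM in WT and 112.9 to 175.3 CPM in *Hvem*-/-, without overlap. Of the 9 T cell markers tested, 6 had a lower and 3 a higher fitted level in *Hvem*-/-. The 9 myeloid markers summed to 73.1 to 106.3 CPM in WT and 47.0 to 148.6 CPM in *Hvem*-/-, with *C1qa* at 0 in all samples, and the 6 plasma cell markers to 1279 to 1427 and 1220 to 1379 CPM. The 5 naive B cell markers summed to 264.0 to 359.4 CPM in WT and 192.1 to 221.6 CPM in *Hvem*-/-, also without overlap. All 4 naive B cell markers tested had a lower fitted level in *Hvem*-/-, among them *Fcer2a* (edgeR with Benjamini-Hochberg, adjusted p = 0.00704). The part of these other cell types in the values of the members was not tested. In bulk samples, a change in the share of a cell type and a change of RNA per cell cannot be told apart.

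Levels in WT GC B cells spanned a wide range among proteins that the mitoribosome, with few exceptions, holds in equal number. Per kilobase of the longest coding transcript in GENCODE, the median over the 75 tested members was 38.2 normalized counts, and the 90th percentile was 10.5 times the 10th. The highest level was that of *Mrpl18*, a protein of the central protuberance of the large subunit, at 196.2, 173.9 and 149.5 normalized counts per kilobase in WT replicates 1, 3 and 5 (mean 173.2 ± 23.4, SD, n = 3). *Mrpl16*, at 157.1 ± 21.7, *Mrpl4*, at 145.2 ± 33.9, and *Mrpl42*, at 140.7 ± 7.74 normalized counts per kilobase, came next, and neighbors in this order lay within their spread. All 4 belong to the large subunit, as do 49 of the 75 tested members, and *Mrps21* of the small subunit followed at 139.2.

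The lowest tested member was *Mrps5*, at 4.45 ± 0.286 normalized counts per kilobase (SD, n = 3). Its bacterial counterpart lies at the entry of the messenger RNA channel. *Mrpl48*, at 7.74 ± 1.95, *Mrps35*, at 8.63 ± 0.985, and *Mrps17*, at 8.68 ± 1.66 normalized counts per kilobase, lay just above and within the spread of one another. The median was 28.5 normalized counts per kilobase for the small subunit and 38.4 for the large subunit, with ranges of 4.45 to 139.2 and 7.74 to 173.2 that overlapped almost entirely. Members with a bacterial counterpart and mitochondrial additions had medians of 32.7 and 39.2 normalized counts per kilobase.

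The order depended on which length was used. Per kilobase of coding sequence, *Mrpl18* was still at rank 1 and *Mrps5* at rank 75 of 75, but *Mrps17*, whose longest transcript is 5061 bases against 360 coding bases, moved from rank 72 to rank 25. *Mrpl16*, *Mrpl4* and *Mrpl42* moved from ranks 2, 3 and 4 to ranks 9, 12 and 10, and *Mrpl48* from rank 74 to rank 53. *Mrps7* and *Mrps14* of the small subunit took ranks 3 and 4. The 90th to 10th percentile ratio was then 8.76, and the 2 orders correlated across the 75 members at a Spearman rho of 0.63, given as a description because both use the same counts and members are not replicates. The level in WT of *Mrps12*, the protein of the decoding center, was 22.6 ± 1.56 normalized counts per kilobase, and that of *Mrps30* was 15.9 ± 1.55 (SD, n = 3 each). The 3 *Mrps18* paralogs, whose products take different places in the mitoribosome, differed in level. *Mrps18c*, whose product takes the place of the bacterial protein in the small subunit, stood at 131.3 ± 28.4 normalized counts per kilobase, *Mrps18a* of the large subunit at 46.1 ± 12.8 and *Mrps18b* of the small subunit at 11.3 ± 2.84, with no overlap between them in WT.

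**Figure D2:**
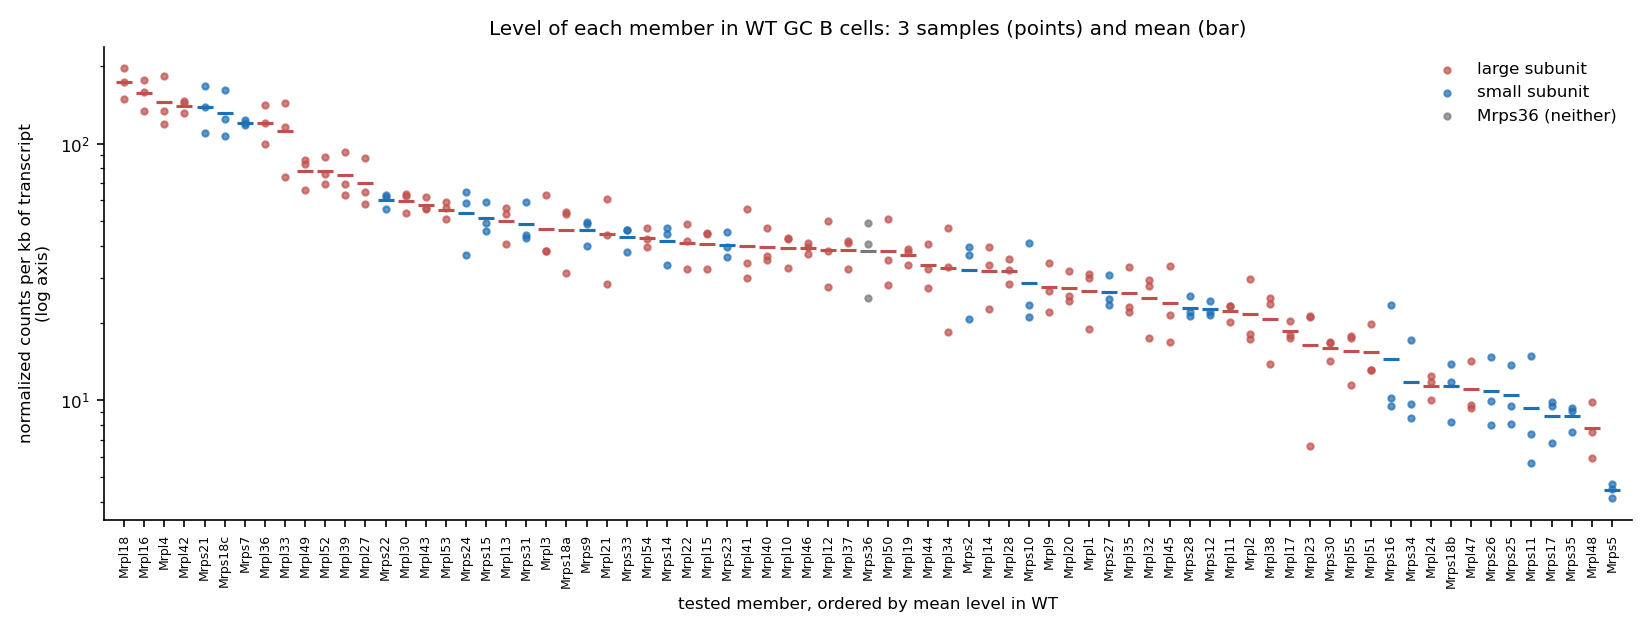
Level of each of the 75 tested members in WT GC B cells, as normalized counts per kilobase of transcript on a log axis, with 1 point per sample (n = 3), a bar at the mean and color for the subunit. Levels ran from 173.2 for *Mrpl18* to 4.45 for *Mrps5*, whose 3 samples lay below all those of its neighbor *Mrpl48*.

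No member differed between *Hvem*-/- and WT GC B cells at an adjusted p under 0.01 (edgeR's quasi-likelihood test, Benjamini-Hochberg over all tested genes). Of all 9653 genes tested, 0.218% passed that threshold. DESeq2 and limma also called 0 members, where they called 0.614% and 0.145% of the genes they tested. At an unadjusted p under 0.05 in edgeR, 1 member was higher in *Hvem*-/-, *Mrpl20*, and 2 were lower, *Mrpl4* and *Mrpl54*. These counts are small beside the share of all genes at the same cut, 6.72% higher and 5.22% lower. The smallest adjusted p of any member was 0.261, for *Mrpl4* in edgeR with the Benjamini-Hochberg adjustment. The study describes both genotypes as taken from the same chimeras, without saying which samples share a mouse or whether each sample of a genotype is a separate mouse. The p-values therefore cover only how far these samples vary, and genotype and donor line cannot be told apart.

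Fold changes of the members lay on both sides of 0. The median log2 fold change of *Hvem*-/- over WT was -0.07 over the 75 tested members and -0.006 over all tested genes. Of the members, 34 lay above 0 and 41 below, with quartiles at -0.27 and 0.15. All tested genes had quartiles at -0.23 and 0.20. None had a fold change beyond 2-fold, against 2.40% of all tested genes. The 95% confidence interval lay within a 2-fold change in both directions for 44 of 75 members (58.7%), against 69.0% of all tested genes. Precision followed the read number. All 25 members with the most reads had intervals within 2-fold, as did 16 of the next 25 and 3 of the 25 with the fewest reads, so for most members with few reads a 2-fold difference was not excluded. The median standard error was 0.2997 for members and 0.238 for all tested genes.

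**Figure D3:**
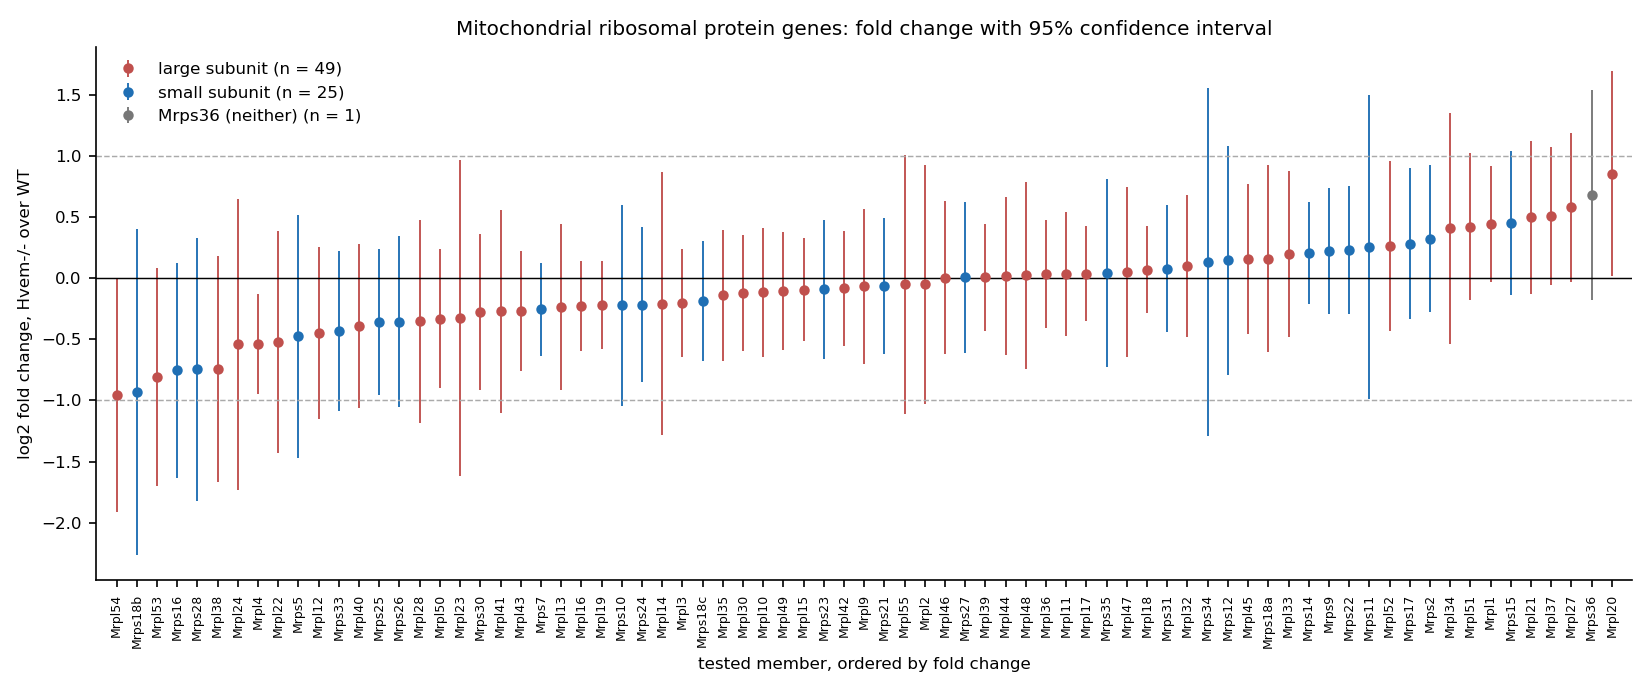
Log2 fold change of *Hvem*-/- over WT for the 75 tested members (points, colored by subunit) with 95% confidence intervals from edgeR, ordered by fold change; dashed lines mark 2-fold. Intervals of 72 members cross 0, and those of *Mrpl4*, *Mrpl54* and *Mrpl20* do not.

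Both subunits gave similar medians. The 25 tested members of the small subunit had a median log2 fold change of -0.06 (12 above 0, 13 below), and the 49 of the large subunit had -0.08 (21 above, 28 below). Members with a bacterial counterpart had a median of -0.07 and mitochondrial additions -0.08. By place in the large subunit, the median was 0.02 for 7 members around the exit tunnel, -0.02 for 6 of the central protuberance and -0.45 for 5 of the L7/L12 stalk. The 7 did not include *Mrpl4* (log2 fold change -0.54), although its bacterial counterpart reaches the tunnel wall, so the exit tunnel median depends on this assignment.

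In the stalk, which recruits the translation factors that hydrolyze GTP, 4 of 5 members lay below 0. *Mrpl54*, the lowest of all members, had 28.3, 25.5 and 23.9 normalized counts in WT replicates 1, 3 and 5, against 11.1, 17.7 and 10.6 in *Hvem*-/- replicates 2, 4 and 6. The genotypes did not overlap for this gene, whose log2 fold change was -0.96 (standard error 0.457; edgeR with Benjamini-Hochberg, adjusted p = 0.415), from only 123 reads in all. *Mrpl53* had 35.1, 41.1 and 38.8 normalized counts in WT and 15.6, 12.4 and 39.0 in *Hvem*-/-, where replicate 6 was at the WT level and the other two were below it. Its log2 fold change was -0.81 (standard error 0.428), with -1.46 without *Hvem*-/- replicate 6 and -0.50 without replicate 4. *Mrpl53* shares up to 418 bases of exon with another coding gene annotated on the same strand, so its reads may be divided between them.

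*Mrpl12*, the stalk protein that binds translation factors directly, had 36.1, 65.5 and 50.03 normalized counts in WT and 34.5, 49.5 and 26.0 in *Hvem*-/-, and these ranges overlapped (log2 fold change -0.45, standard error 0.338, and from -0.73 to -0.23 with each sample left out). The proteins of the stalk base, *Mrpl10* and *Mrpl11*, had log2 fold changes of -0.12 and 0.03. In each sample, the median deviation of the 5 stalk members from their gene means was 0.19, 0.43 and 0.26 log2 CPM in WT and -0.26, -0.04 and -0.10 in *Hvem*-/-, without overlap, which describes 5 genes and was not tested. Transcripts of the stalk members had a median GC content of 54.0%, against 49.2% for all tested genes. With the trend in GC content and length removed from each sample, their median log2 fold change went from -0.45 to -0.30.

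*Mrpl4* had the smallest p of any member. Its bacterial counterpart extends into the wall of the exit tunnel. It had 236.3, 153.1 and 171.8 normalized counts in WT and 134.8, 125.4 and 127.7 in *Hvem*-/-, so all *Hvem*-/- samples lay below all WT samples. The log2 fold change was -0.54 (95% confidence interval -0.95 to -0.13; edgeR with Benjamini-Hochberg, adjusted p = 0.261). Without WT replicate 1 it was -0.34. The transcript of *Mrpl4* is GC-rich (60.1%), and with the trend in GC content and length removed from each sample its log2 fold change was -0.28 (edgeR with Benjamini-Hochberg, adjusted p = 0.708). Over all tested genes, the median log2 fold change went from 0.21 in the tenth with the lowest GC content to -0.27 in the tenth with the highest. Members had a median GC content of 50.1%, close to the 49.2% of all tested genes, and with the trend removed their median log2 fold change was -0.07.

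*Mrpl20* was the member with the highest fold change. Its bacterial counterpart acts early in the assembly of the large subunit. It had 18.6, 24.4 and 19.4 normalized counts in WT and 22.3, 47.7 and 42.6 in *Hvem*-/-, where replicate 2 lay within the WT range and the other two above it. The log2 fold change was 0.85 (edgeR, standard error 0.402; Benjamini-Hochberg adjusted p = 0.408). *Mrpl20* is the member closest to the deleted gene, 0.874 Mb from *Tnfrsf14* on chromosome 4 (155802878 to 155809975, GRCm38). The next members on that chromosome, *Mrps15* and *Mrpl37*, lie 28.9 and 47.9 Mb away. Whether this distance bears on the value of *Mrpl20* was not tested, and its promoter window held none of the 3 motifs.

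Other members of the large subunit with the smallest p on the higher side had overlapping values, except *Mrpl1*. *Mrpl1*, the protein of the mobile stalk beside the site where transfer RNA leaves, had 106.4, 109.9 and 67.2 normalized counts in WT and 114.7, 119.2 and 150.1 in *Hvem*-/-. The genotypes did not overlap, and the log2 fold change was 0.44 (edgeR, standard error 0.228; Benjamini-Hochberg adjusted p = 0.462). It was 0.25 with the GC and length trend removed and 0.24 without WT replicate 5. *Mrpl27* had 48.8, 66.6 and 44.1 normalized counts in WT and 110.3, 72.4 and 54.4 in *Hvem*-/-, which gave a log2 fold change of 0.58, or 0.26 without *Hvem*-/- replicate 2. *Mrpl37*, a mitochondrial addition, had 62.5, 61.0 and 48.5 in WT and 77.97, 60.05 and 108.8 in *Hvem*-/-, which gave a log2 fold change of 0.51, or 0.27 without *Hvem*-/- replicate 6. With the GC and length trend removed, *Mrpl20*, *Mrpl27* and *Mrpl37* were the 3 members with an unadjusted p under 0.05 on the higher side and none was on the lower side, and no adjusted p was below 0.442 (edgeR, Benjamini-Hochberg).

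For *Mrpl21* and *Mrpl51* the log2 fold changes were 0.50 and 0.42, each with overlapping values, and with each sample left out they ranged from 0.26 to 0.82 and from 0.18 to 0.63. *Mrpl21* ranged from 32.2 to 69.5 normalized counts in WT and from 60.1 to 91.0 in *Hvem*-/-. On the lower side, *Mrpl38*, a mitochondrial addition in the central protuberance, had 35.1, 33.3 and 19.4 normalized counts in WT and 22.3, 16.8 and 13.0 in *Hvem*-/-. Its values overlapped only through WT replicate 5 and *Hvem*-/- replicate 2, and the log2 fold change was -0.74 (standard error 0.444). *Mrpl43* had non-overlapping groups, at 78.1, 77.7 and 86.6 in WT against 62.4, 68.0 and 72.1 normalized counts in *Hvem*-/-, with a log2 fold change of only -0.27.

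**Figure D4:**
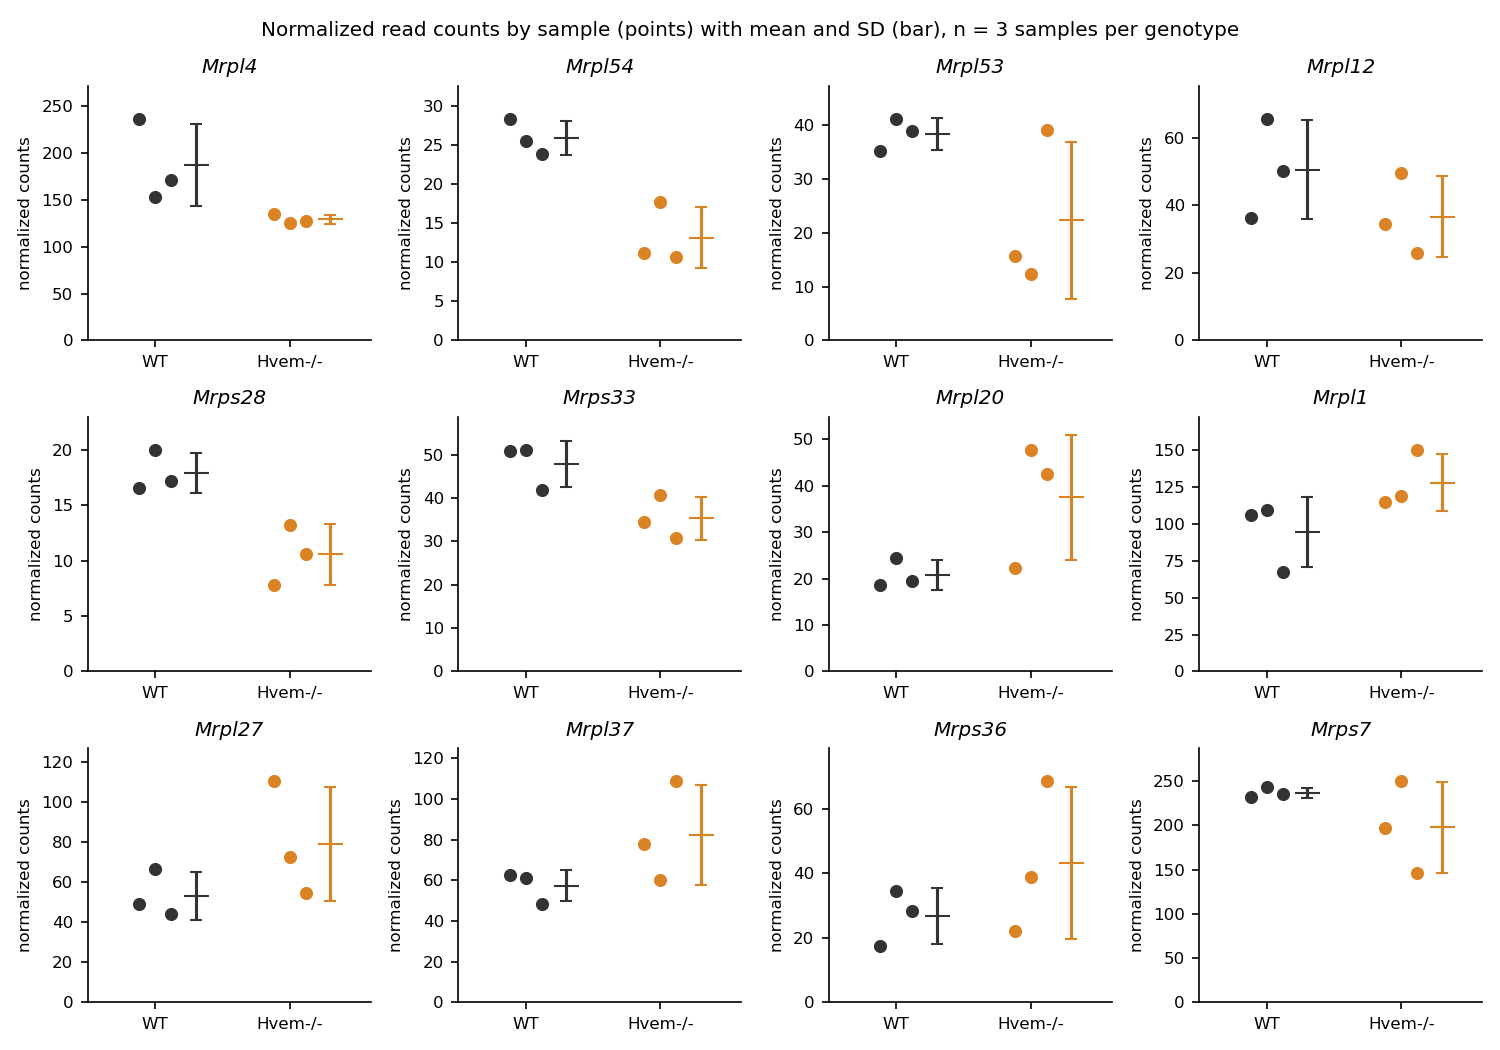
Normalized counts of 12 members in each WT and *Hvem*-/- sample (points) with mean and SD (n = 3 each), on axes that start at 0. *Mrpl4*, *Mrpl54*, *Mrps28*, *Mrps33* and *Mrpl1* show no overlap between genotypes, whereas the other 7 do.

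In the small subunit, no tested member had an unadjusted p under 0.05. *Mrps7*, which lies near the site where transfer RNA leaves the small subunit and had the most reads of any member, had 232.4, 243.0 and 235.2 normalized counts in WT and 197.1, 249.9 and 146.6 in *Hvem*-/-. The WT values were within a narrow range and the *Hvem*-/- values spread on both sides of it, and the log2 fold change was -0.26 (95% confidence interval -0.64 to 0.12), or -0.46 without *Hvem*-/- replicate 4, -0.08 without replicate 6 and -0.11 with the GC and length trend removed. *Mrps28* had 16.6, 20.0 and 17.2 normalized counts in WT and 7.8, 13.2 and 10.6 in *Hvem*-/-, and *Mrps33* had 50.8, 51.0 and 41.8 against 34.5, 40.6 and 30.7. Neither overlapped between genotypes, with log2 fold changes of -0.75 (standard error 0.515) and -0.43 (standard error 0.314).

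*Mrps16*, whose bacterial counterpart helps the small subunit assemble, rested on 1 sample. It had 60.5, 24.4 and 26.1 normalized counts in WT and 24.5, 21.2 and 20.1 in *Hvem*-/-, with the log2 fold change at -0.75 that ranged from -0.97 to -0.21 when each sample was left out. *Mrps9*, a protein of the head, was higher without overlap, at 56.6, 69.9 and 68.7 normalized counts in WT and 86.9, 70.6 and 70.9 in *Hvem*-/-, but the difference was small (log2 fold change 0.22). *Mrps15* had a log2 fold change of 0.45 and *Mrps12* of 0.15, each with overlapping values. Of the members named for their level, the log2 fold change ranged from -0.54 for *Mrpl4* and -0.48 for *Mrps5* to 0.07 for *Mrpl18* and 0.28 for *Mrps17*. The signs for *Mrpl18*, *Mrps12*, *Mrpl42* (-0.08), *Mrpl45* (0.16), *Mrpl48* (0.02), *Mrps18a* (0.16) and *Mrps35* (0.04) turned when a single sample was left out.

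Of the *Mrps18* paralogs, *Mrps18b* had 12.7, 8.9 and 14.9 normalized counts in WT and 4.5, 3.5 and 11.8 in *Hvem*-/-, from 59 reads in all, and a log2 fold change of -0.93 (standard error 0.640), which ranged from -1.61 to -0.60 with each sample left out. *Mrps18a* and *Mrps18c* had log2 fold changes of 0.16 and -0.19. *Mrps30* had -0.28, or -0.07 without *Hvem*-/- replicate 2 and -0.45 without replicate 6. *Mrps36*, the member outside the ribosome, had 17.6, 34.4 and 28.4 normalized counts in WT and 22.3, 38.9 and 68.6 in *Hvem*-/-, where replicates 4 and 6 lay above the WT range, replicate 6 by the wider margin (log2 fold change 0.68, standard error 0.412, and 0.20 without replicate 6). *Mrps6* had too few reads to be tested, 4, 1 and 2 from WT samples against 5, 7 and 8 from *Hvem*-/- samples.

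Across the tested members, groups did not overlap for 2 on the higher side (*Mrpl1* and *Mrps9*) and 5 on the lower side (*Mrpl4*, *Mrpl43*, *Mrpl54*, *Mrps28* and *Mrps33*). Over all tested genes the shares were 8.74% higher and 8.09% lower, and these 7 members of 75 do not exceed them. The median deviation of the 75 members from their gene means was -0.08, 0.13 and 0.08 log2 CPM in WT replicates 1, 3 and 5, against -0.09, 0.006 and -0.04 in *Hvem*-/- replicates 2, 4 and 6. WT replicate 1 lay among the *Hvem*-/- samples, so the medians overlapped. Within a genotype, the median coefficient of variation of a member was 19.7% in WT and 24.1% in *Hvem*-/-.

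**Figure D5:**
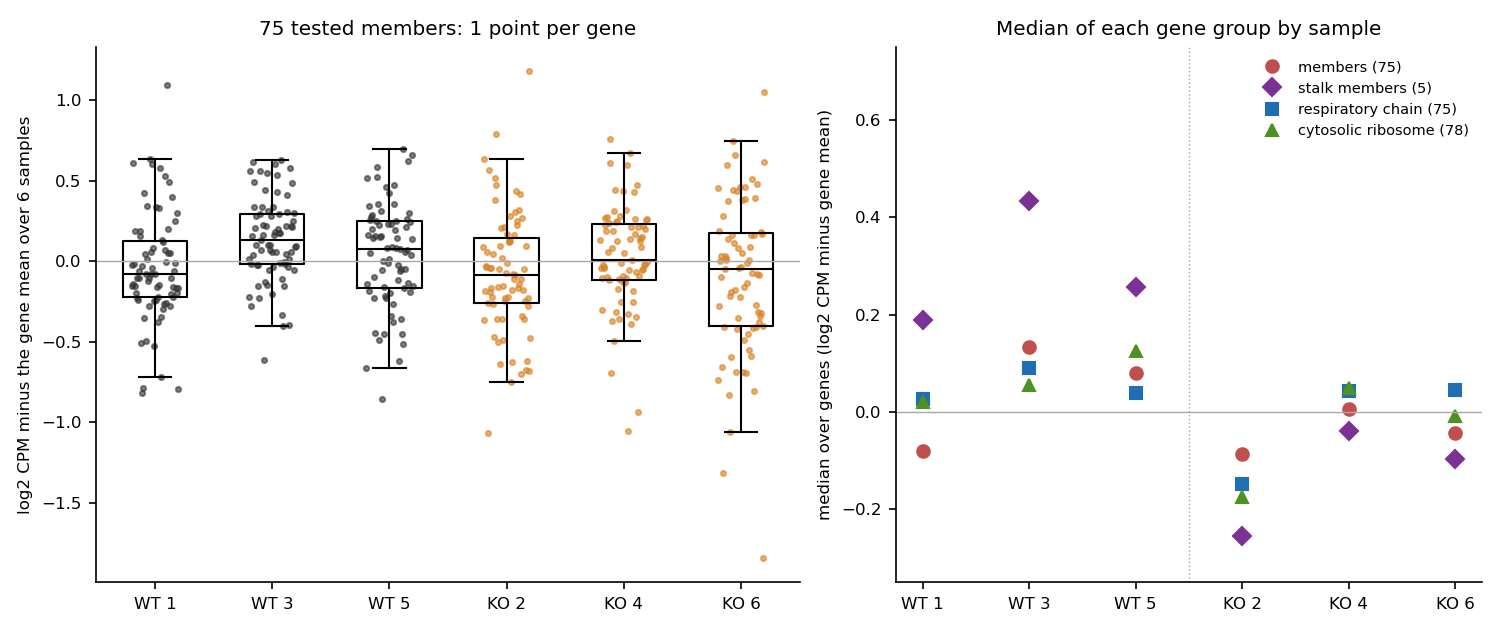
Left, log2 CPM of each of the 75 tested members minus its mean over the 6 samples, by sample (box, quartiles and median; KO is *Hvem*-/-). Right, the median of the members, of the 5 stalk members, of the respiratory chain (75 genes) and of the cytosolic ribosome (78 genes) by sample; medians of all members overlap between genotypes, from -0.08 to 0.13 in WT and from -0.09 to 0.006 in *Hvem*-/-.

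Genes that work beside the members were also compared, and none of them had an adjusted p under 0.01 (edgeR, Benjamini-Hochberg). Mitoribosome proteins under other symbols, such as *Dap3* (log2 fold change -0.20) and *Mrp63* (0.36), had a median of -0.15 over 7 genes, with none at an unadjusted p under 0.05. Of 26 tested genes for mitoribosome assembly, 2 lay on each side at that cut, with a median of -0.10. *Mterfd1*, which acts in assembly of the mitoribosome, had 107.4, 103.2 and 103.1 normalized counts in WT and 141.5, 153.7 and 166.7 in *Hvem*-/-, without overlap (log2 fold change 0.55, adjusted p = 0.235, edgeR with Benjamini-Hochberg). For *Wbscr16*, another gene of this list, it was -1.38 (standard error 0.544).

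Of 15 mitochondrial translation factors, the median was 0.01, and 1 passed an unadjusted p under 0.05, on the lower side. This was *Tufm*, the elongation factor that delivers aminoacyl transfer RNA to the mitoribosome, with 91.8, 67.7 and 81.4 normalized counts in WT and 43.4, 38.9 and 39.0 in *Hvem*-/-. All *Hvem*-/- samples were below all WT samples, and the log2 fold change was -0.996 (edgeR, standard error 0.267; Benjamini-Hochberg adjusted p = 0.112). *Oxa1l*, which inserts mitoribosome products into the inner membrane, had a log2 fold change of -0.29. Of 15 genes for the upkeep and expression of mitochondrial DNA, 1 was higher (*Rg9mtd1*, 0.42) and 1 lower (*Elac2*, -1.08), both of which process mitochondrial transfer RNA, and the median was -0.10.

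The nuclear-encoded respiratory chain had 3 of 75 tested genes lower and none higher at an unadjusted p under 0.05, with a median of -0.06 that was near that of the members. The summed level of these 75 genes was 6691, 6954 and 6782 CPM in WT and 5936, 6366 and 6145 CPM in *Hvem*-/-. These sums, taken over library totals without the TMM scaling of the fits, did not overlap, unlike the shares of the members, which was not tested. With TMM scaling, the median deviation of these genes from their gene means was 0.028, 0.091 and 0.039 log2 CPM in WT. In *Hvem*-/- it was -0.148, 0.043 and 0.046, and these medians overlapped between genotypes. *Uqcrc1* and *Cyc1*, both of complex III, had log2 fold changes of -0.66 and -0.44. The cytosolic ribosome, which shares no proteins with the mitoribosome, had 8 of 78 tested genes lower and none higher, among them *Rpsa* (-0.43) and *Rpl18* (-0.47), with a median of -0.11 and 62 genes below 0. Over all tested genes, 5.22% were lower and 6.72% higher at that cut, and 4900 of 9653 lay below 0. With the GC and length trend removed, the median log2 fold change was -0.071 for the cytosolic ribosome and -0.073 for the members. The tested genes of the cytosolic ribosome summed to 22528, 22522 and 24377 CPM in WT and 19784, 21832 and 20330 CPM in *Hvem*-/-, without overlap. These sums also lack TMM scaling. With it, their median deviation was 0.020, 0.056 and 0.125 log2 CPM in WT and -0.175, 0.050 and -0.007 in *Hvem*-/-, which overlapped. Groups did not overlap for 14 of these genes on the lower side and 0 on the higher side, against 8.09% and 8.74% of all tested genes. They had a median of 3676 reads over the 6 samples against 311 for tested members, and the difference between the lists was not tested. Of 8 tested regulators of mitochondrial genes, *Myc* was higher at an unadjusted p under 0.05 (log2 fold change 0.50, adjusted p = 0.293, edgeR with Benjamini-Hochberg), and *Gabpb1*, a partner of GABPA, had 0.30. Values of both genes overlapped between genotypes. Those of *Myc* were 220.7, 336.2 and 281.5 normalized counts in WT and 310.8, 340.0 and 541.5 in *Hvem*-/-, with replicate 6 the highest. RNA encoded in mitochondria was not analysed here.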

How the data were processed

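RNA of sorted GC B cells was amplified with the Ovation system and sequenced as paired reads. The authors aligned with STAR and ran DESeq2, in versions the study does not state. CASAVA, Cufflinks 2.1.1, TopHat2 2.0.8b and the build mm10 appear in the submitters' processing notes. The values the authors deposited are a signal, read counts divided by each sample's DESeq2 size factor, called normalized counts here. The deposited table also holds the authors' own comparison of the genotypes, as log2 fold changes with standard errors, a Wald score and p-values, none of which was used. Since 100% of the values in a sample were multiples of its smallest one (relative tolerance 1e-06), read counts were recovered.

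In R 4.3.3, the quasi-likelihood test of edgeR 4.0.16 was run on these counts with genotype as the only term, after filterByExpr and TMM scaling. P-values were adjusted over 9653 genes (Benjamini-Hochberg, threshold 0.01). Alternatives were DESeq2 1.42.0, limma 3.58.1 on log2(value + 1), upper-quartile or DESeq2 factors, no filter, at least 10 reads in every sample, a loess correction (span 0.5) for GC content and length, known for 98.8% of genes, and each sample left out. Functions were tested on simulated data. Lengths and positions came from GENCODE vM21 (GRCm38), where all 76 members matched directly, and promoters from RefSeq (GRCm38.p6). Log2 CPM used a prior count of 2. Exons of 23 members overlap those of another coding gene, and whether counting used strand is not given in the sources used here. Among them, *Mrpl18*, *Mrpl21*, *Mrpl27*, *Mrpl43*, *Mrpl48*, *Mrps7* and *Mrps30* overlap a coding gene on the opposite strand. Reads of that neighbor may therefore affect their values, which was not tested.

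Named members were the 8 with the smallest p in each direction, the 4 highest and 4 lowest by level, the *Mrps18* paralogs, and *Mrps30*, *Mrps36*, *Mrps12*, *Mrpl1*, *Mrpl12*, *Mrpl20* and *Mrpl45*. *Mrpl10*, *Mrpl11*, *Mrpl43*, *Mrps6*, *Mrps9* and *Mrps33* were added once their values were known. The members and lists were chosen with earlier results of these data known. The motifs and the promoters shown were chosen after seeing the data.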

Additional observations from a re-analysis of the deposited data

How the results depend on the processing

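No member was called at an adjusted p under 0.01 in any alternative run, nor at a threshold of 0.05, and the lowest adjusted p was 0.206. The median log2 fold change of the members stayed within -0.13 to 0.006. At an unadjusted p under 0.05, the number of members higher in *Hvem*-/- was 0 with DESeq2, upper-quartile factors and limma, 2 with no filter, 3 with GC content and length removed, and 0 to 3 when each sample was left out. The number lower was 1 with DESeq2 and with at least 10 reads in every sample, 0 with GC content and length removed, and 0 to 3 when each sample was left out. The causes were not tested. Per coding kilobase, the 90th to 10th percentile ratio of level was 8.76.

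Of 374 combinations of a named member and an alternative, 359 kept their direction. The 15 that reversed came from 7 members whose log2 fold changes lay near 0. *Mrpl48* was -0.0029 with upper-quartile factors, -0.073 with GC content and length removed, and -0.19 to 0.23 when each sample was left out. *Mrps35* was -0.042 with limma and -0.34 to 0.32 when each sample was left out. The others reversed only when a sample was left out, and the range was -0.049 to 0.49 for *Mrpl45*, -0.040 to 0.17 for *Mrpl18*, -0.064 to 0.47 for *Mrps18a*, -0.082 to 0.41 for *Mrps12* and -0.22 to 0.051 for *Mrpl42*.

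No paired analysis was possible because the genotypes share no replicate number and, although the study places both in the same chimeras, no source says which samples share one. For 31 of 75 members the interval reaches beyond 2-fold.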
